A study of Mus musculus with 12 samples.

Results

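The nuclear genes for mitochondrial ribosomal proteins were followed in mouse liver after a single bout of exercise. Members were all genes in the deposited table whose symbol begins with Mrpl or Mrps and a number. There were 78 of them among 17432 genes, 49 Mrpl genes and 29 Mrps genes. The Mrpl symbols were given to proteins of the large subunit and the Mrps symbols to proteins of the small subunit. Some symbols do not follow the protein's place, since Mrps30 and Mrps18a encode proteins of the large subunit and the product of Mrps36 is now known as a component of the 2-oxoglutarate dehydrogenase complex.

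The mitochondrial ribosome translates the few proteins that mitochondrial DNA encodes, all of them core parts of the respiratory chain and of ATP synthase. Its RNA comes from mitochondrial DNA, while each of its proteins is made from a nuclear gene in the cytosol and imported. Many of these proteins descend from bacterial ribosomal proteins and others are found only in mitochondrial ribosomes. Liver is rich in mitochondria and depends on them for fat oxidation, ketone body production and gluconeogenesis.

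Liver RNA came from wild-type (WT) male C57BL/6J mice aged 8 to 10 weeks and fed standard chow, 6 labeled Sedentary and 6 labeled Exercise. All mice had been fed in the daytime only for 3 days, and on each of these days had a short forced treadmill run for acclimation. They were refed on the next morning and then had their food removed. The Exercise mice then ran on a treadmill at 14 m/min for 3 hours in this postprandial state, while the Sedentary mice were left sedentary. Livers of both groups were collected at the same time point, the end of the run.

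The 12 libraries held 18745379 to 19324461 counts each. In the edgeR quasi-likelihood test with Benjamini-Hochberg adjustment, 42.4% of the 12344 genes tested had an adjusted p under 0.05, the threshold for calling a gene higher or lower. These were 2603 higher genes (21.1%) and 2626 lower genes (21.3%), so that 49.8% of the calls were higher. Scaled by library size alone, 14.3% of genes were higher and 30.3% lower, and 32.1% of the calls were higher. The hepatocyte markers, which include Alb and Apoa1, were all abundant, with a summed level of 124992 to 167823 CPM (a gene's counts relative to the library's scaled total) in the Sedentary livers and 154298 to 176798 CPM in the Exercise livers. Of these 10 markers 3 were higher, Tat (log2 fold change 1.83), Hnf4a (0.59) and Alb (0.24).

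Mitochondrial ribosomal protein mRNA made up a smaller share of the counts in exercised than in sedentary livers. Of the 78 members, 36 (46.2%) were called lower and 2 (2.56%) were called higher, against 21.3% and 21.1% of all genes tested, and 40 were not called. All 78 passed the filter on low counts. The fitted log2 fold change was below 0 for 72 members and above 0 for 6, with a median of -0.16 against -0.00275 for all genes tested. No member changed by a fold of 2 or more, and the log2 fold changes ran from -0.65 for Mrps18b to 0.31 for Mrps25. The values of the 6 Sedentary and the 6 Exercise livers did not overlap for 22 of the lower members and 1 of the higher members, together 29.5% of the members against 22.3% of all genes tested.

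Mrpl genes were called lower 19 times of 49 (38.8%) and higher 0 times, with a median log2 fold change of -0.13, and 48 of the 49 fitted changes were below 0. Mrps genes were called lower 17 times of 29 (58.6%) and higher 2 times, with a median of -0.24. When the genes were sorted by where the protein sits, 21 of 51 large-subunit genes were lower, and 15 of 26 small-subunit genes were lower and 2 were higher. Genes with a bacterial homolog were lower in 23 of 48 cases and those specific to mitochondria in 13 of 30, and both classes had a median of -0.16. Both of the higher members, Mrps25 and Mrps31, belong to the class specific to mitochondria. No test compared these subgroups with each other. Scaled by library size alone, 33 Mrpl and 19 Mrps genes were lower, when 30.3% of all genes were.

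**Figure D1:**
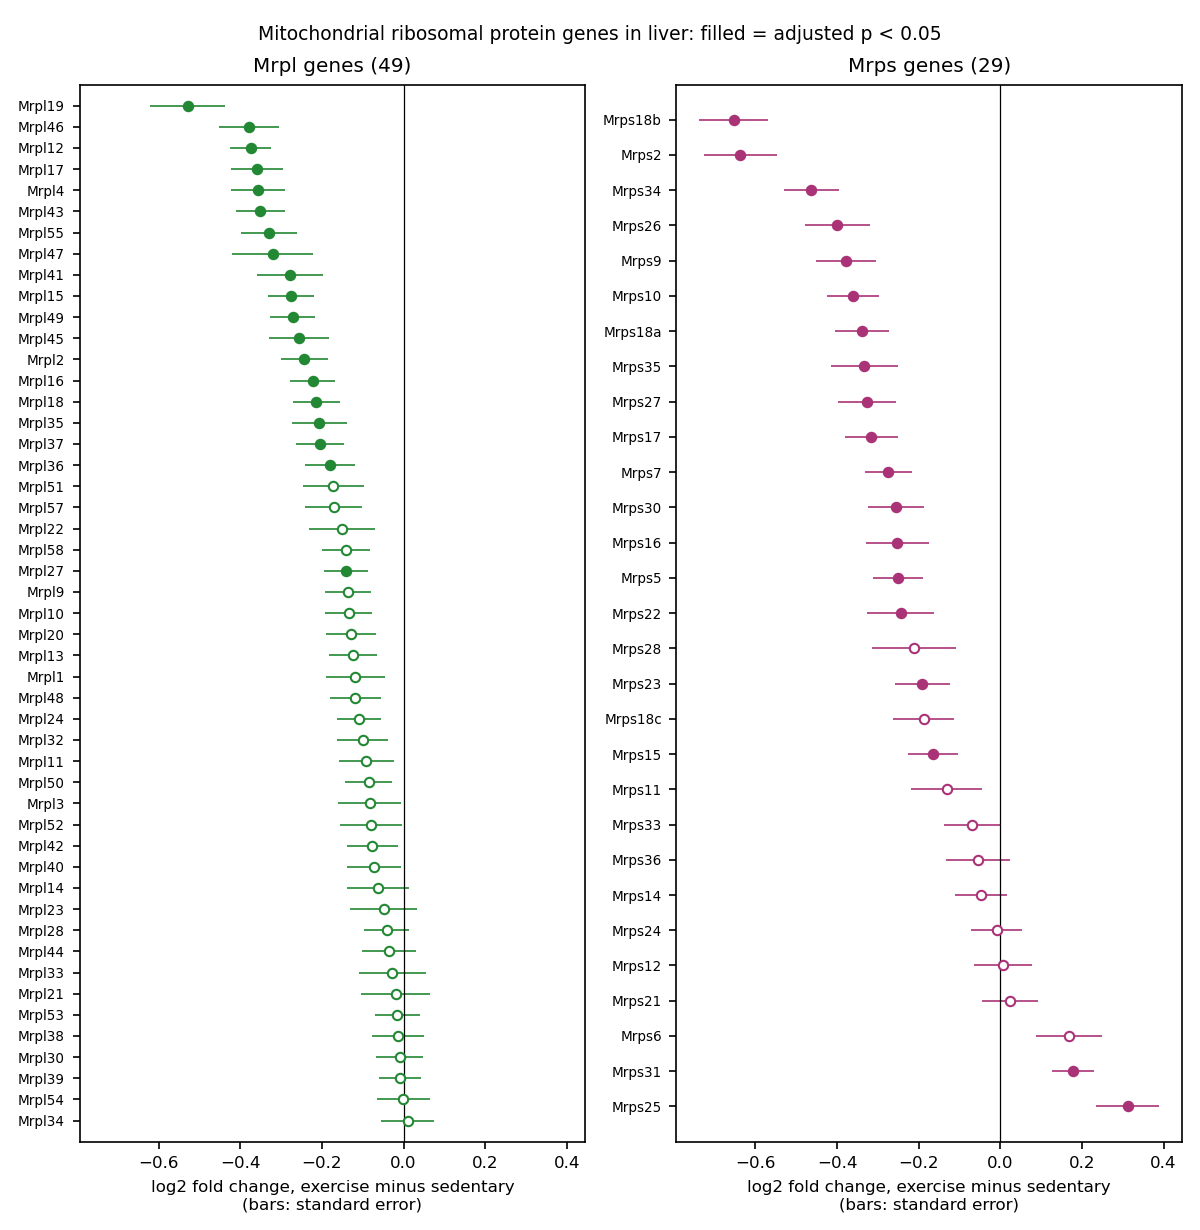
Fitted log2 fold change of each of the 78 members, Exercise minus Sedentary, with its standard error as a bar, for 49 Mrpl genes (left) and 29 Mrps genes (right), where filled points have an adjusted p under 0.05. Most points lie left of 0, from -0.65 for Mrps18b, and the filled points right of 0 are Mrps31 and Mrps25.

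Summed over the 78 members, the scaled level was 2508 to 2868 CPM in the Sedentary livers and 2190 to 2425 CPM in the Exercise livers, so that the groups did not overlap. The Mrpl sum was 1786 ± 92.1 CPM in Sedentary and 1602 ± 56.4 CPM in Exercise livers (SD, n = 6 each). The Mrps sum was 881 ± 54.3 CPM in Sedentary and 761 ± 32.3 CPM in Exercise livers (SD, n = 6 each). Neither sum overlapped between the groups. As a share of each library's counts with no scaling between libraries, the members took 0.243% to 0.311% in Sedentary and 0.20% to 0.24% in Exercise livers, again with no overlap. The ratio of the Mrpl sum to the Mrps sum was 1.98 to 2.07 in Sedentary and 2.07 to 2.13 in Exercise livers, and these ranges overlapped slightly at their ends. Within the groups, Exercise replicate 3 had the lowest sum of all livers, and only 10 of the 78 members lay above their Exercise mean there. Sedentary replicate 2 had the highest sum, with 70 of 78 members above their Sedentary mean. The TMM scaling factors of these libraries were likewise the lowest (0.914, Exercise replicate 3) and the highest (1.09, Sedentary replicate 2) of all. The part of library composition in these sums was not tested.

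**Figure D2:**
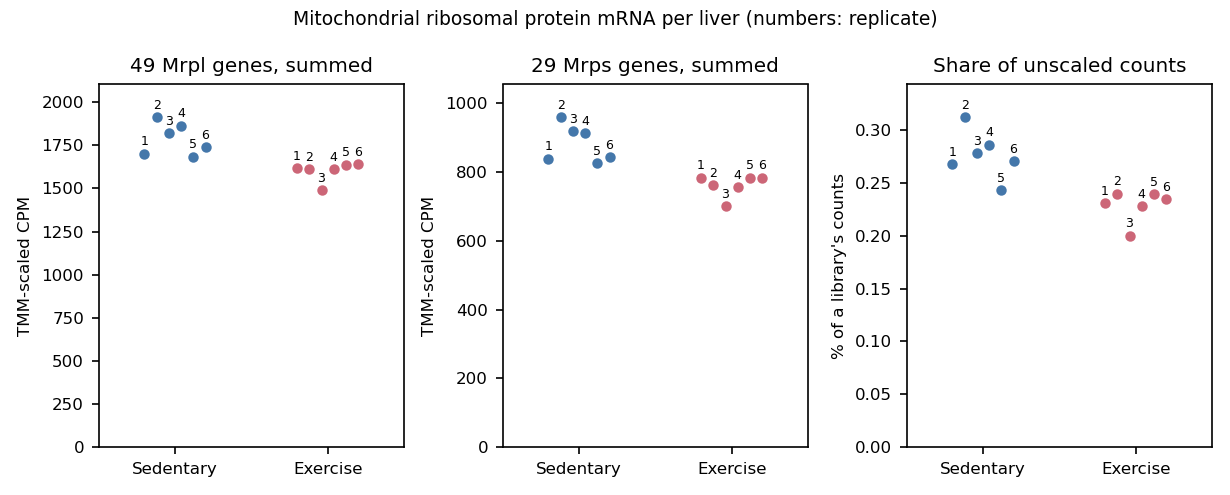
Summed TMM-scaled CPM of the 49 Mrpl genes (left) and the 29 Mrps genes (middle), and the members' share of each library's unscaled counts (right), 1 point per liver with its replicate number. In all 3 panels the 6 Exercise livers lie below the 6 Sedentary livers, with Exercise replicate 3 lowest and Sedentary replicate 2 highest.

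These are whole-liver values, in which fewer cells of a type and less RNA per cell cannot be told apart. Markers of other liver cells were read beside the members. None of 4 cholangiocyte markers, 5 tested Kupffer cell and leukocyte markers or 5 erythroid markers was called. The cholangiocyte sum was only 8.07 to 9.53 CPM in Sedentary and 7.77 to 10.2 CPM in Exercise livers, so the lack of calls says little there. The summed erythroid level was 416 to 684 CPM in Sedentary and 414 to 527 CPM in Exercise livers. All 5 erythroid markers had fitted changes below 0, with a median log2 fold change of -0.23. Of 5 endothelial markers Pecam1 and Lyve1 were higher, and the endothelial sum was 92.8 to 126 CPM in Sedentary and 108 to 165 CPM in Exercise livers. Of 5 stellate cell markers Lrat and Des were lower, while the stellate sum was 138 to 184 CPM in Sedentary and 129 to 190 CPM in Exercise livers. No marker in these lists was at 0 throughout, and Cd3e, a T cell gene, was lowest with at most 0.387 CPM in any liver. The part of these cells in the members' levels was not tested.

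The largest decreases, in Mrps18b and Mrps2, were in small-subunit genes. Mrps18b (gene ID 66973) encodes one of the mammalian homologs of bacterial ribosomal protein S18 and lies on chromosome 17, from 35910380 to 35916440 in GRCm38. Its level had a lowest, median and highest value of 43.0, 51.9 and 57.1 CPM in Sedentary livers and of 25.8, 33.4 and 35.6 CPM in Exercise livers. Every exercised liver was below every sedentary one. The fitted log2 fold change was -0.65 ± 0.0838 (SE), or 0.636 of the sedentary level, with an edgeR adjusted p of 9.07e-06. An exact two-sided permutation test over the 924 relabellings of the 12 livers gave 0.00216, the smallest p it can give. Exons of Mrps18b share 578 bases with the antisense gene Gm16279 on the opposite strand. The part of Gm16279 in the Mrps18b level was not tested.

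Mrps2 (gene ID 118451, chromosome 2, 28465951 to 28471177) encodes the homolog of bacterial S2, a protein on the solvent side of the small subunit. Sedentary livers ranged from 36.5 to 53.5 CPM around a median of 44.7, and Exercise livers from 23.8 to 30.9 CPM around a median of 29.7. Here too the groups were apart, and the low end of the Exercise range was 1 liver, replicate 3. The log2 fold change was -0.64 ± 0.0889 (SE, edgeR adjusted p = 2.29e-05; exact permutation p = 0.00216).

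Mrps34 (gene ID 79044, chromosome 17, 24895120 to 24896289) encodes a small-subunit protein with no bacterial homolog, and defects in it are known to cause Leigh syndrome in people. The level was 41.9, 47.0 and 52.4 CPM (lowest, median and highest) in Sedentary and 31.1, 33.7 and 37.5 CPM in Exercise livers. All Exercise values were below all Sedentary values, with a log2 fold change of -0.46 ± 0.0678 (SE, edgeR adjusted p = 3.39e-05; exact permutation p = 0.00216). Exons of Mrps34 share 971 bases with Mapk8ip3 on the opposite strand and 289 bases with Nme3 on the same strand, and neither of those genes was called (log2 fold changes of 0.02 and -0.20).

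Mrps26 (gene ID 99045, chromosome 2, 130563757 to 130565394) is likewise specific to mitochondria, and Mrps9 (gene ID 69527, chromosome 1, 42851233 to 42905683) encodes the homolog of bacterial S9, whose tail reaches the tRNA sites. Mrps26 stood at 14.2, 16 and 18.2 CPM in Sedentary and 11.2, 12.2 and 13.2 CPM in Exercise livers (lowest, median, highest). Mrps9 stood at 13.3, 14.4 and 16.9 CPM in Sedentary and 10.2, 11.3 and 12.3 CPM in Exercise livers. Neither gene's groups overlapped. Their log2 fold changes were -0.40 ± 0.0796 and -0.38 ± 0.0744 (SE), with edgeR adjusted p of 0.00059 and 0.000535 and an exact permutation p of 0.00216 for both.

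Among large-subunit genes, Mrpl19 (gene ID 56284, chromosome 6, 81957826 to 81965949) fell most. It encodes the homolog of bacterial L19, which lies at the interface between the subunits. Sedentary livers had 10.7, 13.2 and 14.7 CPM and Exercise livers 8.15, 8.73 and 10.6 CPM (lowest, median, highest), a narrow gap with no overlap. The log2 fold change was -0.53 ± 0.092 (SE, edgeR adjusted p = 0.000177; exact permutation p = 0.00216). Its exons share 1962 bases with those of Gcfc2 on the opposite strand, and Gcfc2 also fell, by 0.52 on the log2 scale (edgeR adjusted p = 0.00648). The counting strand is not given, so reads from this shared stretch cannot be told apart. The part of Gcfc2 in the Mrpl19 level was not tested.

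Mrpl12 (gene ID 56282, chromosome 11, 120484637 to 120488754) encodes the L7/L12-type stalk protein, which brings translation factors to the ribosome. Its level was 120 to 137 CPM in Sedentary livers and 94.5 to 101 CPM in Exercise livers, or 128 ± 6.97 and 98.5 ± 2.23 CPM (SD, n = 6 each). Those Exercise livers differed little from one another and were all below the Sedentary ones. The log2 fold change was -0.37 ± 0.0501 (SE, edgeR adjusted p = 1.39e-05; exact permutation p = 0.00216). The other stalk genes had smaller values that were not called, -0.13 for Mrpl10 (edgeR adjusted p = 0.0651) and -0.09 for Mrpl11 (edgeR adjusted p = 0.302). Exons of Mrpl12 share 127 bases with the noncoding RNA gene Gm16755 on the opposite strand, whose part in the Mrpl12 level was not tested.

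Mrpl46 (gene ID 67308, chromosome 7, 78775341 to 78783089) encodes a large-subunit protein specific to mitochondria. Livers of the Sedentary group had 13.5, 16.3 and 18.3 CPM and those of the Exercise group 11, 12.6 and 13.0 CPM (lowest, median, highest), without overlap. The log2 fold change was -0.38 ± 0.0739 (SE, edgeR adjusted p = 0.000499; exact permutation p = 0.00216). Mrpl46 lies head to head with another member, Mrps11, with 173 bases of exon in common on opposite strands, and Mrps11 had a log2 fold change of -0.13 that was not called (edgeR adjusted p = 0.245).

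**Figure D3:**
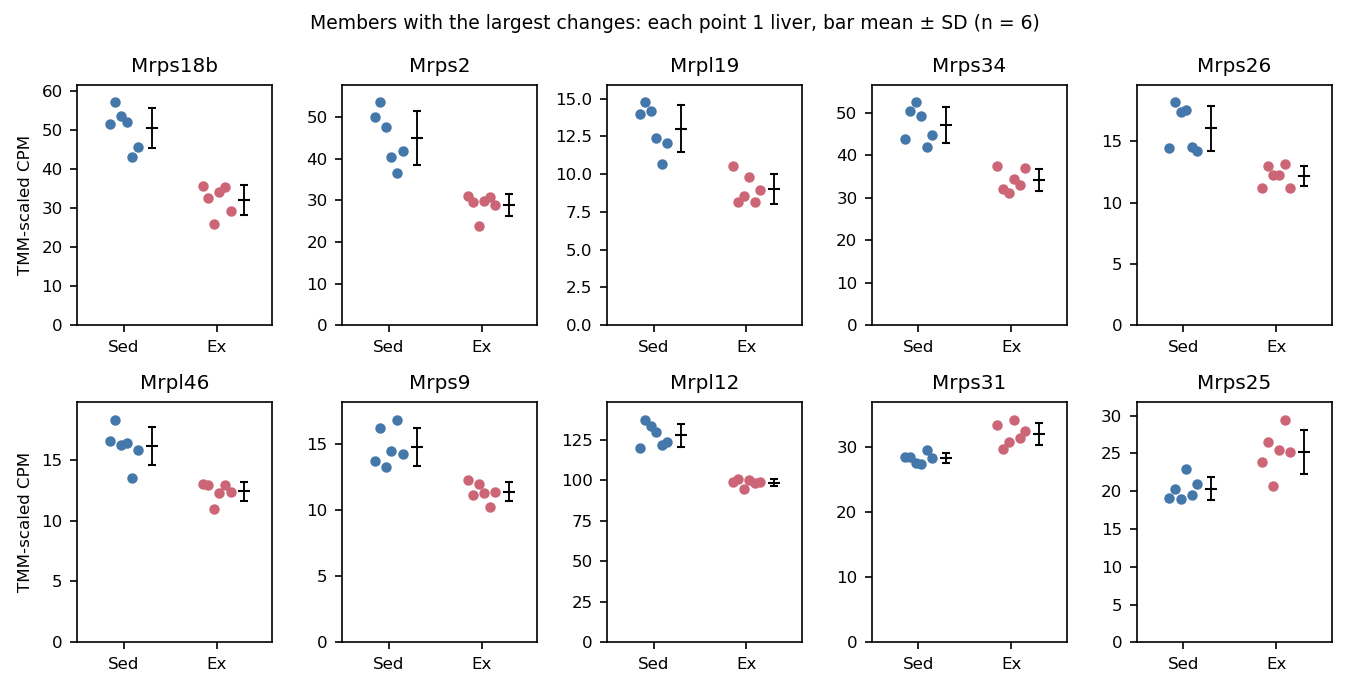
TMM-scaled CPM of the 8 members with the largest called decreases and of the 2 called increases, 1 point per liver (Sed, Sedentary; Ex, Exercise), with the mean ± SD of 6 livers beside the points. The groups do not overlap for any of the 8 lower members or for Mrps31, and they overlap for Mrps25, where 1 Exercise liver is at 20.6 CPM.

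The members called higher were both of the small subunit. Mrps25 (gene ID 64658, chromosome 6, 92169512 to 92184023) encodes a protein specific to the mitochondrial small subunit. Sedentary livers had 18.9, 19.9 and 22.9 CPM and Exercise livers 20.6, 25.3 and 29.5 CPM (lowest, median, highest), so that the groups overlapped. The fitted level was 1.24 times the sedentary one, with a log2 fold change of 0.31 ± 0.0771 (SE, edgeR adjusted p = 0.00334; exact permutation p = 0.00649). Exons of Mrps25 share 3533 bases with those of Nr2c2, a nuclear receptor gene on the opposite strand, and Nr2c2 was itself higher with a log2 fold change of 0.84 (edgeR adjusted p = 0.00351). Whether reads were counted by strand is not given in the sources used here, so reads from the shared stretch cannot be told apart, and the part of Nr2c2 in the Mrps25 level was not tested.

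Mrps31 (gene ID 57312, chromosome 8, 22410449 to 22429669) also encodes a protein found only in mitochondrial ribosomes. Its values ran from 27.3 to 29.5 CPM in Sedentary and from 29.7 to 34.2 CPM in Exercise livers, with no overlap by a small gap. The rise was 1.13-fold, a log2 fold change of 0.18 ± 0.0522 (SE, edgeR adjusted p = 0.0107; exact permutation p = 0.00216). Scaled by library size alone, neither gene was called, with log2 fold changes of 0.22 for Mrps25 (edgeR adjusted p = 0.0555) and 0.08 for Mrps31 (edgeR adjusted p = 0.261). Mrps6 came next at 0.17 and was not called (edgeR adjusted p = 0.106). It shares 159 bases of exon on the same strand with Slc5a3, an inositol transporter gene that was higher by 1.90 on the log2 scale (edgeR adjusted p = 2.5e-07).

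The genes Mrps18a, Mrps18b and Mrps18c descend from the same bacterial gene and take separate places, with the Mrps18a product in the large subunit and the other two in the small subunit. Mrps18a (gene ID 68565, chromosome 17, 46111004 to 46128908) had 27.1, 29.5 and 34.6 CPM in Sedentary and 23.1, 23.7 and 26.0 CPM in Exercise livers (lowest, median, highest), with no overlap. Its log2 fold change was -0.34 ± 0.066 (SE, edgeR adjusted p = 0.000474; exact permutation p = 0.00216). Mrps18c (gene ID 68735, chromosome 5, 100798759 to 100804467) had 20.9, 26.5 and 29.4 CPM in Sedentary and 20.9, 22.4 and 24.4 CPM in Exercise livers, which overlapped. Its log2 fold change of -0.19 ± 0.0752 (SE) did not pass (edgeR adjusted p = 0.052; exact permutation p = 0.0541), but passed with library size alone (edgeR adjusted p = 0.0062). All of these homologs thus had fitted changes below 0, from -0.65 for Mrps18b to -0.19 for Mrps18c, and differences among them were not tested.

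The remaining lower members spanned both subunits and many parts of the ribosome. Around the peptidyl transferase center, Mrpl2 (-0.24), Mrpl16 (-0.22) and Mrpl27 (-0.14) were lower on the log2 scale, while Mrpl3 had -0.08 and was not called. Of genes for proteins around the exit tunnel, Mrpl4 (-0.36) and Mrpl45 (-0.26), whose product binds the inner membrane, were lower. Mrpl22 (-0.15), Mrpl23 (-0.05) and Mrpl24 (-0.11), of the same group, were not called. Mrps12, the homolog of the decoding protein S12, had 0.01 and was not called, whereas Mrps5 (-0.25), Mrps7 (-0.27), Mrps10 (-0.36), Mrps15 (-0.16), Mrps16 (-0.25) and Mrps17 (-0.32), all homologs of bacterial small-subunit proteins, were lower. Mrps22 (-0.24), Mrps23 (-0.19), Mrps27 (-0.33), a pentatricopeptide repeat protein, and Mrps35 (-0.33) were the further lower small-subunit genes specific to mitochondria, and Mrps30 (-0.25), whose product is in the large subunit, was lower too. Mrpl17 (-0.36), Mrpl43 (-0.35), Mrpl55 (-0.33), Mrpl47 (-0.32), Mrpl41 (-0.28), Mrpl15 (-0.28), Mrpl49 (-0.27), Mrpl18 (-0.21), Mrpl35 (-0.21), Mrpl37 (-0.20) and Mrpl36 (-0.18) completed the large-subunit genes called lower.

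Members that were not called included genes with defined extra functions. Mrpl58, a peptidyl-tRNA hydrolase that releases chains from stalled ribosomes, had a log2 fold change of -0.14 (edgeR adjusted p = 0.0612). Mrpl44, which has a ribonuclease III-like fold, had -0.04 (edgeR adjusted p = 0.71), and Mrps36 had -0.05 (edgeR adjusted p = 0.607). Fitted changes of the 40 members not called ran from -0.21 for Mrps28 to 0.17 for Mrps6. Some calls were lost in fits that left out 1 liver. Of the 36 lower members, 30 were called in each of the 12 fits that left out 1 liver, as were both higher members. The exceptions were Mrpl35, lost without Exercise replicate 3 or 5, Mrps22, lost without Exercise replicate 3 or 6 or Sedentary replicate 2, and Mrpl36, Mrps15, Mrps23 and Mrpl27, lost in 5, 7, 7 and 9 of the 12 fits.

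Levels per transcript length, as the authors' FPKM, differed widely among members. Averaged over the 12 livers, Mrps21 was highest at 141 FPKM, followed by Mrpl52 at 130 FPKM and Mrpl12 at 122 FPKM, and the median member had 26.9 FPKM. Lowest were Mrpl17 at 6.24 FPKM, Mrps25 at 3.77 FPKM and Mrpl19 at 2.23 FPKM. Of the 3 most abundant, Mrpl12 was lower, as described, and Mrps21 and Mrpl52 were not called. Mrps21 had 52.5, 61.5 and 67.3 CPM in Sedentary and 56.6, 61.5 and 68.4 CPM in Exercise livers (lowest, median, highest), and its log2 fold change of 0.02 (edgeR adjusted p = 0.814; exact permutation p = 0.695) was below 0 with library size scaling. Mrpl52 had 43.3, 47.2 and 55.7 CPM in Sedentary and 40.5, 46.7 and 49.6 CPM in Exercise livers, with -0.08 on the log2 scale (edgeR adjusted p = 0.433; exact permutation p = 0.379). Mrpl17, near the low end of the range, had 41.9, 45.4 and 53.0 CPM in Sedentary and 32.9, 36.2 and 39.1 CPM in Exercise livers, with no overlap and a log2 fold change of -0.36 ± 0.0635 (SE, edgeR adjusted p = 0.000205; exact permutation p = 0.00216).

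**Figure D4:**
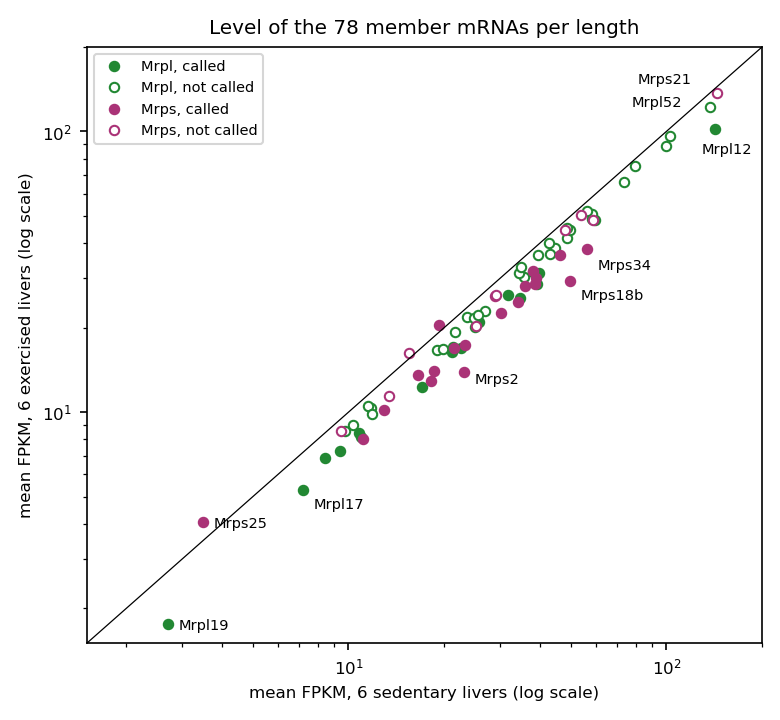
Mean FPKM of each member in the 6 Sedentary livers (horizontal axis) and the 6 Exercise livers (vertical axis), both on log scales, with the line of equal levels. Sedentary means run from 2.71 FPKM for Mrpl19 to 144 FPKM for Mrps21 and Exercise means from 1.76 to 137 FPKM for the same genes, called members occur at low and high levels, and Mrps25 and Mrps31 are the called members above the line.

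Other genes of mitochondrial translation were counted from fixed lists in the same fit. The mitoribosome proteins with other symbols were lower for Gadd45gip1 (-0.33 on the log2 scale, edgeR adjusted p = 0.000833) and Ptcd3 (-0.28, edgeR adjusted p = 0.00217) and not called for Aurkaip1 (-0.05), Chchd1 (-0.02) and Dap3 (-0.02). Of 29 genes for ribosome assembly and ribosomal RNA modification, 13 were lower and 1 higher, with a median of -0.19. Their largest decreases were in the pseudouridine synthase genes Trub2 (log2 fold change -0.995, edgeR adjusted p = 4.48e-07) and Rpusd3 (-0.88, edgeR adjusted p = 8.43e-08). Trub2 was at 6.35 to 7.68 CPM in Sedentary and 2.98 to 4.05 CPM in Exercise livers, a larger fold than any member showed. The gene that was higher was Mterf3 (0.35, edgeR adjusted p = 0.000257), which belongs to a family of mitochondrial transcription and ribosome assembly regulators.

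Translation factors of mitochondria were lower in 9 of 17 cases and higher in 0, with a median of -0.25. Examples were the translational activator Taco1 (-0.60, edgeR adjusted p = 0.000635) and the initiation factor Mtif3 (-0.53, edgeR adjusted p = 2.79e-06). Of 17 mitochondrial aminoacyl-tRNA synthetase genes, 7 were lower, led by Pars2 (-0.61, edgeR adjusted p = 0.0189) and Sars2 (-0.47, edgeR adjusted p = 0.000499), and Hars2 was higher (0.16, edgeR adjusted p = 0.0481). Of 8 genes for mitochondrial DNA transcription and replication, 3 were lower, among them Tfam (-0.25, edgeR adjusted p = 0.00469) and Ssbp1 (-0.18, edgeR adjusted p = 0.0336), which coat mitochondrial DNA. Genes encoded by mitochondrial DNA itself were not analysed here.

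Cytosolic ribosomal protein genes and respiratory chain genes had no such counts. Of 76 cytosolic ribosomal protein genes tested, 0 were lower and 1, Rps27, was higher (log2 fold change 0.19, edgeR adjusted p = 0.0366), with a median log2 fold change of 0.02. Their summed level was 16787 to 21580 CPM in Sedentary and 17858 to 20656 CPM in Exercise livers. Among 75 nuclear genes for respiratory chain and ATP synthase subunits, 1 was lower and 0 higher, with a median of 0.01. The lower gene, Ndufa4l2 (-0.59, edgeR adjusted p = 0.00527), is a paralog that entered the list by its symbol. The sum of these was 12400 to 15018 CPM in Sedentary and 12954 to 14926 CPM in Exercise livers. Both sums overlapped between the groups, while the members' sum did not. Differences between the lists were not tested.

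**Figure D5:**
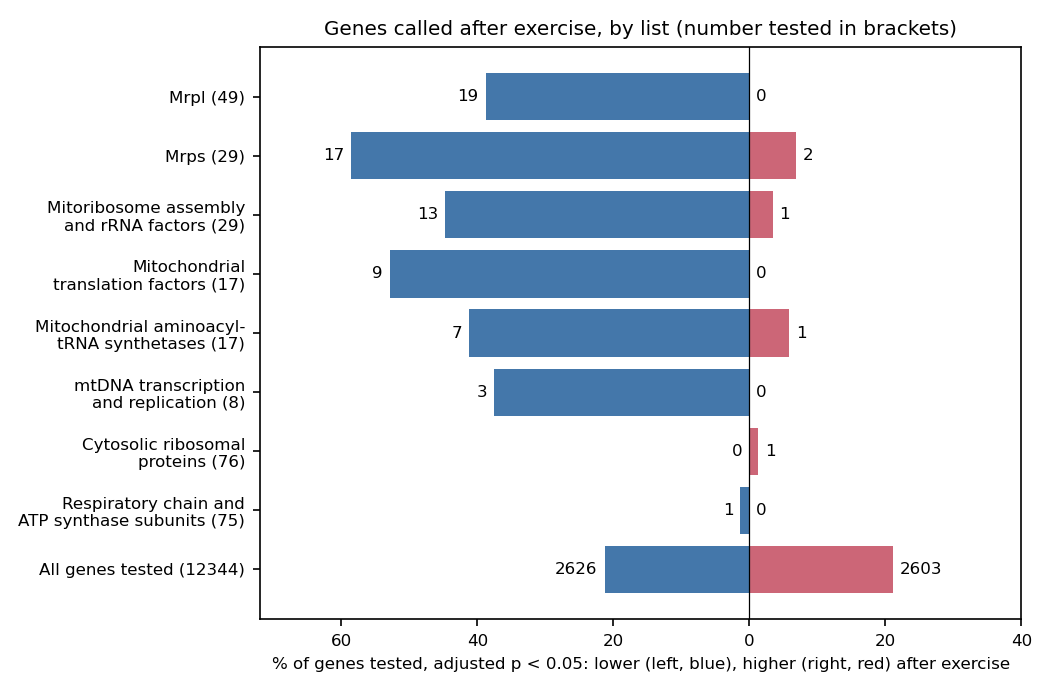
Share of tested genes in each list with an adjusted p under 0.05, lower after exercise to the left and higher to the right, with the number of genes at each bar. The Mrpl and Mrps genes, with 19 and 17 lower, and the assembly and translation lists extend to the left, the cytosolic ribosomal and respiratory chain lists have 1 call each, and all genes tested have 21.3% lower and 21.1% higher.

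Regulators named for mitochondrial genes moved in both directions. Ppargc1a, the PGC-1α coactivator that fasting and exercise are known to induce, was at 5.76 to 12.7 CPM in Sedentary and 28.3 to 42.1 CPM in Exercise livers, with a log2 fold change of 1.88 (edgeR adjusted p = 5.09e-06). Ppargc1b, its relative, rose with 1.37 on the log2 scale (edgeR adjusted p = 4.68e-06). Yy1 (0.35) and Gabpb2 (0.21) were also higher. Lower were Myc, which promotes ribosome production and growth, with -1.23 (edgeR adjusted p = 0.00236), and Pprc1, the PGC-1-related coactivator induced by serum, with -0.37 (edgeR adjusted p = 0.0044). Myc was at 5.15 to 12.7 CPM in Sedentary and 2.76 to 5.36 CPM in Exercise livers, with overlap. Nrf1 (-0.04), Esrra (-0.00496), Gabpa (0.10) and Gabpb1 (0.12), transcription factors or subunits known to act on such genes, were not called.

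RefSeq (GRCm38.p6) gave 75 promoters for 69 of the 78 members, each of 250 bases before and 50 bases after the start, and Mrpl4, Mrpl13, Mrpl15, Mrpl19, Mrpl38, Mrpl54, Mrps28, Mrps34 and Mrps35 had no entry. Of 4 short motifs searched on both strands, CCGGAAG, bound by GABPA and other ETS factors, was in 34.7% of member promoters, against 16.8% of promoters of genes tested and 8.86% of all promoters. GCATGCG, part of the NRF1 motif, was in 10.7% against 6.04% and 3.58%, and AAGATGG, part of the YY1 motif, in 17.3% against 6.97% and 6.34%. The E-box CACGTG, to which MYC and USF factors bind, was in 9.33% against 9.64% and 7.15%. A match is a match of letters and no more.

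Matches occurred in lower and in uncalled members. Any of the motifs was in 55.9% of the 34 promoters of lower members and in 59.0% of the 39 promoters of members not called. CCGGAAG was in 11 (32.4%) and 15 (38.5%) of them and AAGATGG in 7 (20.6%) and 6 (15.4%). Counts were smaller for GCATGCG, in 2 (5.88%) and 6 (15.4%), and for CACGTG, in 5 (14.7%) and 2 (5.13%). Differences between lower and uncalled members were not tested. The 250 bases before the start in the RefSeq promoter table are given for the lower members Mrps18b and Mrps2 and for the higher members Mrps25 and Mrps31, because these had the largest changes in each direction among members with an entry. They are written 5′ to 3′ on the strand of the gene, with a motif match in capitals: Mrps18b at chr17:35916441-35916690 (minus strand), Mrps2 at chr2:28467816-28468065 (plus strand), Mrps25 at chr6:92184024-92184273 (minus strand) and Mrps31 at chr8:22411090-22411339 (plus strand). For Mrps2 and Mrps31 the start in that table lies inside the gene interval given above, so that the stretch is not the one before the gene's outermost start.
Mrps18b: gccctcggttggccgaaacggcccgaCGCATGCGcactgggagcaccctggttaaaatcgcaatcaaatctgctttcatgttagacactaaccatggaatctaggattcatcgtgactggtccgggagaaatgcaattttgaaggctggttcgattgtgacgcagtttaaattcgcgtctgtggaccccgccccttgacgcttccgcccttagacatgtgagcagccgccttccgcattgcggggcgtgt
Mrps2: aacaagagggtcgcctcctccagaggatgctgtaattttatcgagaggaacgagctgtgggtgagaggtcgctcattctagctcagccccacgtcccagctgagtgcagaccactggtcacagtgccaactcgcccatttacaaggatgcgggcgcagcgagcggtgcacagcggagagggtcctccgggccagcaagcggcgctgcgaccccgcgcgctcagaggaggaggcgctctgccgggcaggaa
Mrps25: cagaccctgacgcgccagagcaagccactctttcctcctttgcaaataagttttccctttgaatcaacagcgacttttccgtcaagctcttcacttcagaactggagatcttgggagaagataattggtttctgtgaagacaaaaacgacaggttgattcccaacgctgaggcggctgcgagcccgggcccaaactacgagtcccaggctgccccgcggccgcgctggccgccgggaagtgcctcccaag
Mrps31: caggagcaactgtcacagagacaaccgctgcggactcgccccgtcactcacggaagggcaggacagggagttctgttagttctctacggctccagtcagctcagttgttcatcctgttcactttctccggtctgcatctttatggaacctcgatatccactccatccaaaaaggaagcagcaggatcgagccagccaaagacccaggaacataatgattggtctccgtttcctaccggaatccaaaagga
The capitals in Mrps18b mark GCATGCG on both strands, which overlap each other. The 50 bases after the Mrps18b start also hold matches of CCGGAAG and GCATGCG. The stretches before Mrps2, Mrps25 and Mrps31 held none of the 4 motifs in these letters.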

How the data were processed

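Liver mRNA libraries (total RNA, BGI mRNA kit) of 6 Sedentary and 6 Exercise mice were grouped by their labels. Per the submitters' processing notes, Bowtie2 2.3.4.3, RSEM 1.3.1 and the mm10 build were used, with no roles stated. The deposited table gives estimated counts, not scaled between libraries by the authors (31.3% of values are not whole), and the authors' FPKM, scaled for length and depth. Annotation and counting strand are not given in the sources used here.

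Counts were rounded and tested on all genes with edgeR 4.0.16 in R 4.3.3 by its robust quasi-likelihood test of exercise, after TMM scaling and the filterByExpr filter (at least 10 counts), with Benjamini-Hochberg adjusted p. Spread between livers within a group was 11.3% (biological coefficient of variation). CPM are TMM-scaled. Exact permutation tests compared mean log2(CPM + 0.5). The pipeline was tested on simulated counts in which few genes changed, and by more than most members did here. That test did not cover scaling when many genes change. Counting error is part of the members' spread between livers, as for Mrpl47 with 109 to 227 counts per library. No library pair of 66 held identical values. Gene coordinates and promoters came from RefSeq, and exon overlaps from GENCODE M21.

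Members and gene lists were chosen with earlier results of these data known. Full values were given for up to 8 called members per direction, the 3 highest and 3 lowest by FPKM and the Mrps18 genes. In each list up to 2 called genes per direction were named. Alternatives covered scaling, filter, tool, threshold, replicate block and each library left out.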

Additional observations from a re-analysis of the deposited data

Results flagged for a closer look

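In 2 of the 30 groups of 6 livers checked for the named members, 1 liver lay far from the others of its group, where chance alone would give about 1.5 such groups. Mrps2, the homolog of bacterial S2, was at 23.8 CPM in Exercise replicate 3, and the next lowest Exercise liver was at 28.8 CPM. That liver also had the lowest summed level of all members. Mrps18a, the S18 homolog of the large subunit, was at 26.0 CPM in Exercise replicate 1, and the next highest Exercise liver was at 24.1 CPM. Both genes were lower after exercise in every fit that left out 1 liver.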

How the results depend on the processing

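The 36 lower members numbered 27 at an adjusted p under 0.01, 52 with library size alone and 46 with limma on log2(FPKM + 0.1), while 14.2%, 30.3% and 29.6% of all genes tested were lower in these fits. In both of the last fits all of the 36 were among those called. With library size alone 33 Mrpl and 19 Mrps members were lower, 0 members were higher and the median log2 fold change of the members was -0.25, against -0.10 for all genes. In the limma fit 0 members were higher and the median was -0.25, against -0.09 for all genes, and 32.0% of all calls were higher. At an adjusted p under 0.01, 1 member was higher. Mrps25 and Mrps31 were not called in these scalings, with limma adjusted p of 0.101 and 0.247. Mrps21, not called in any fit, turned to -0.0712 with library size alone and -0.0687 with limma, and ran from -0.0152 to 0.0549 without 1 liver, below 0 without Exercise replicate 6 (-0.00193) or Sedentary replicate 1 or 6 (-0.0152 and -0.0037). The cause was not tested.

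Leaving out each liver gave 31 to 39 lower members, 2 to 3 higher members (3 without Exercise replicate 3, when Mrps6 was called), 16 to 22 lower Mrpl members, 15 to 17 lower Mrps members and medians of -0.18 to -0.14. Mrps18c was called without Sedentary replicate 1 or 6, with library size alone (edgeR adjusted p = 0.0062), upper quartile scaling (0.034) and limma (0.0149). Under other filters, RLE size factors, upper quartile scaling and DESeq2 the counts stayed at 34 to 41 lower and 2 higher. The replicate numbers pair no samples in the labels, and deviations of same-numbered livers correlated from -0.10 to 0.16, with 3 of 12 livers closest to the one of their own number. With the replicate block 35 members were lower and 2 higher, with a median of -0.16, and Mrps18c was called (adjusted p = 0.0474). Nothing in the labels says more of how the 6 mice per group were housed or run. The p-values set the difference between the groups against the spread between these mice. They cannot separate exercise from anything else that the mice of a group shared.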

Other observations

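Some member genes start close to another gene on the opposite strand. In RefSeq, 26 of the 69 members with a promoter entry had such a neighbor start within 1000 bases. The share among all genes was not counted. For 23 of the 26 members the neighbor was tested. These pairs were looked up after the members' values were known. Of the 23 neighbors, 6 were lower, 14 were not called and 3 were higher, with a median log2 fold change of -0.11. Of all genes tested, 21.3% were lower and 21.1% higher. The lower neighbors include Mrpl46, itself a member, beside Mrps11. Where the member was lower, the neighbor was lower in 2 cases, not called in 8 and higher in 2.

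Mrps18b, with -0.65 on the log2 scale, starts 756 bases from Ppp1r10, which encodes a regulatory subunit of protein phosphatase 1 and was higher with 0.45 (edgeR adjusted p = 0.0373). Mrpl2 (-0.24) starts 141 bases from the kinesin light chain gene Klc4, which was higher with 0.39 (edgeR adjusted p = 5.55e-05). The starts of Mrpl43 and Twnk, the mitochondrial DNA helicase gene, are 116 bases apart, and their exons share 358 bases on opposite strands. Mrpl43 was lower (-0.35), while Twnk had -0.05 and was not called. The reverse was seen for Mrps12, which had 0.01 and was not called, while Sars2, the mitochondrial seryl-tRNA synthetase gene 147 bases away, was lower with -0.47. Mrpl37 (-0.20) and Cyb5rl (-0.26) and Mrpl41 (-0.28) and Pnpla7 (-0.38) were the pairs lower on both sides. Differences within pairs were not tested.

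Exons of 33 of the 78 members overlapped those of another gene in GENCODE M21, for 28 on the opposite strand and for 8 on the same strand. Mrpl49, which was lower (-0.27), shares 91 bases with Syvn1, a ubiquitin ligase gene of the endoplasmic reticulum that was higher with 1.11 (edgeR adjusted p = 5.96e-05). Mrpl48 (-0.12, not called) shares 409 bases with Rab6a, which was higher with 0.25. Mrpl14 (-0.06, not called) shares 106 bases with Tmem63b, which was lower with -0.39. The part of shared bases in these values, and in that of Mrpl43, was not tested.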
